A study of Mus musculus with 4 samples.

Results

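Members of the Egr, Nr4a and Klf families, with Bhlhe40 and Ets2, were followed as 10 genes (Egr1, Egr2, Egr3, Nr4a1, Nr4a2, Klf2, Klf4, Klf6, Bhlhe40 and Ets2) among the 27998 in the deposited gene table. They were found by gene symbol, and all 10 symbols were present. The study sequenced single liver immune cells by 10x Genomics droplets from C57BL/6J mice, 2 libraries from animals on a control diet and 2 from animals on the Amylin liver NASH model diet, which induces a fatty and inflamed liver (non-alcoholic steatohepatitis). Cells were non-parenchymal cells sorted as CD45+ (leukocytes) and CD146- (which depletes endothelial cells). All 4 libraries were perfused and digested with flavopiridol, an inhibitor of transcription, in the buffers. Neither the age of the mice nor the time on the diet is in the labels. They also leave it unsaid if the libraries are of different mice. A p-value here thus reflects the spread of these libraries alone, which may be technical. That spread is estimated partly over all genes tested, not from each gene by itself.

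These genes encode DNA-binding transcription factors that many cells switch on within minutes of a stimulus, outside the AP-1 family that the same signals induce. EGR1, EGR2 and EGR3 are zinc finger activators downstream of MAP kinase signalling and serum response factor, and in macrophages they follow differentiation and inflammatory signals. NR4A1 and NR4A2 are orphan nuclear receptors that act without a known natural ligand. NR4A1 is needed for patrolling Ly6C-low monocytes and restrains inflammatory output of macrophages. KLF2, KLF4 and KLF6 are Krüppel-like zinc finger proteins: KLF2 keeps endothelium and lymphocytes quiescent and controls lymphocyte trafficking, KLF4 directs monocyte differentiation, and KLF6 favours inflammatory gene programmes in macrophages. BHLHE40 is a basic helix-loop-helix repressor that supports macrophage and T cell cytokine responses. ETS2 is an ETS-family activator phosphorylated by MAP kinases.

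Of the 10 members, 7 had entries among the RefSeq promoter windows (GRCm38.p6), and Egr1, Egr3 and Bhlhe40 had none. 3 of these windows are shown, for Egr2, the member whose RNA was higher on the NASH diet in macrophage-like cells, and for Nr4a1 and Klf2, whose RNA was lower there. Each is the 250 bases before the RefSeq start, less any base in an annotated exon, printed 5′ to 3′ on the strand of its gene. Capitals mark matches to a CArG box (the binding sequence of serum response factor), to TGACG (the core of the cAMP response element) or to GCGNGGGCG (the EGR consensus), searched on both strands. The Egr2 window is chr10:67537619-67537868 (plus strand), inside the span of the annotated gene (chr10:67535475-67542188). The Nr4a1 window is chr15:101266596-101266845 (plus strand), also inside the annotated span (chr15:101254269-101274795). The Klf2 window is chr8:72318812-72319032 (plus strand), directly before the gene (chr8:72319033-72321656).
Egr2: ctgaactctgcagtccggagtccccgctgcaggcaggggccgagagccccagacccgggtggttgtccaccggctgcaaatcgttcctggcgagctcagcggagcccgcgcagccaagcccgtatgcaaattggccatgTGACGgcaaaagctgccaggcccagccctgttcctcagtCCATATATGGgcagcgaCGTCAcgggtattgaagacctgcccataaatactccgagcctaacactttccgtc
Nr4a1: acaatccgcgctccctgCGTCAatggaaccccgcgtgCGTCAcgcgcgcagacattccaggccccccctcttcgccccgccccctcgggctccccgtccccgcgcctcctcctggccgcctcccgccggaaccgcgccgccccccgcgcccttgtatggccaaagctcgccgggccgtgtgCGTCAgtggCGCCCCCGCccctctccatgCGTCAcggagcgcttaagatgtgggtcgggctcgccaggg
Klf2: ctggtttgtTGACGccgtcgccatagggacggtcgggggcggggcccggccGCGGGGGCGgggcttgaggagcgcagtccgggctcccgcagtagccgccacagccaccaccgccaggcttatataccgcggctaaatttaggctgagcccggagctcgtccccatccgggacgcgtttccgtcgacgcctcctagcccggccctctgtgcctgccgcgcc

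Egr2 had 5 windows and each of the other 6 members had 1, so a count of members with a match in any window is not on the same footing as a share of windows. A CArG box was found in the Egr2 window at position -63, in 4 of the 5 Egr2 windows and in no other member, against 1.47% of all 32851 promoter windows of 250 bases. The Egr2 windows from 67537619, 67537620 and 67537680 overlap. They hold the same CArG box and the same TGACG matches, so these are not separate finds. The core TGACG was found in windows of 6 of the 7 members (in 3 of the 5 of Egr2), against 17.8% of all windows. It occurred 4 times each in the Nr4a1 and Nr4a2 windows. Ets2 is 1 of these 6, but all 250 bases of its window lie in annotated exons, its matches with them. A match to GCGNGGGCG was found in 4 of the 7 (Nr4a1, Nr4a2, Klf2 and Klf4), against 4.70% of all windows. GCGNGGGCG can overlap a GC box (GGGCGG), which was in 32.7% of all windows, in 2 of the 5 of Egr2 (not the one shown) and in those of the other 6 members. No window of the 7 held TGANTCA, the AP-1 site, which was in 6.75% of all windows. These matches describe the letters of the windows and carry no information on which factor was bound.

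After filtering, 6158 of 6927 cell barcodes were kept (1307 and 1420 control cells, 1572 and 1859 NASH cells). The NASH libraries were deeper: the median number of unique molecular identifiers (UMIs, each standing for 1 captured RNA molecule) per deposited barcode was 3064.5 and 2573 in control and 7447 and 7344 in NASH. The median mitochondrial share was 6.43% and 6.23% against 3.43% and 3.21%, and pairs of libraries shared 2 to 8 barcodes. Cells were clustered again from the counts, and clusters were named from marker genes, so class names are "like" names. The macrophage-like class (3588 cells) had UMIs of all 12 of its markers, C1qa, Adgre1, Clec4f and Vsig4 among them, each in at least 25% of its cells. The 2 control libraries stood apart within it: 804 of 968 cells of control replicate 1 lay in cluster 3 (led by Fkbp5, Fosb and Lepr), and 723 of 870 cells of control replicate 2 lay in cluster 4 (led by Hbb-bs, Marco, Cxcl13 and Hmox1).

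In macrophage-like cells the members did not move as a block. Egr2 was higher in the NASH sums, Nr4a1, Klf2, Klf4, Klf6 and Ets2 were lower, and Egr1, Nr4a2 and Bhlhe40 did not pass the test. For this comparison, UMIs were summed over the cells of each library, and values are counts per 1000000 UMIs normalised by edgeR's TMM factors (normalised CPM), with edgeR's quasi-likelihood F test and Benjamini-Hochberg adjustment over 10274 genes at 0.05. Of the 9 members tested, 1 rose and 5 fell. Over all genes tested 44.6% changed (23.3% higher and 21.3% lower), and the count of members is read only against that share. The median log2 fold change was -1.22 over the 9 members tested and -0.02 over all genes tested. Egr3 had 2 UMIs in all kept cells, 1 of them in macrophage-like cells, and was not tested. Control and NASH cells lay mostly in different clusters of this class. Cluster 3 held 804 and 85 control cells against 2 and 2 NASH cells, and cluster 4 held 129 and 723 against 0 and 1. These sums cannot separate a change within cells from a change in the mix of clusters, which was not tested. Words such as rose and fell refer to the sums.

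**Figure D1:**
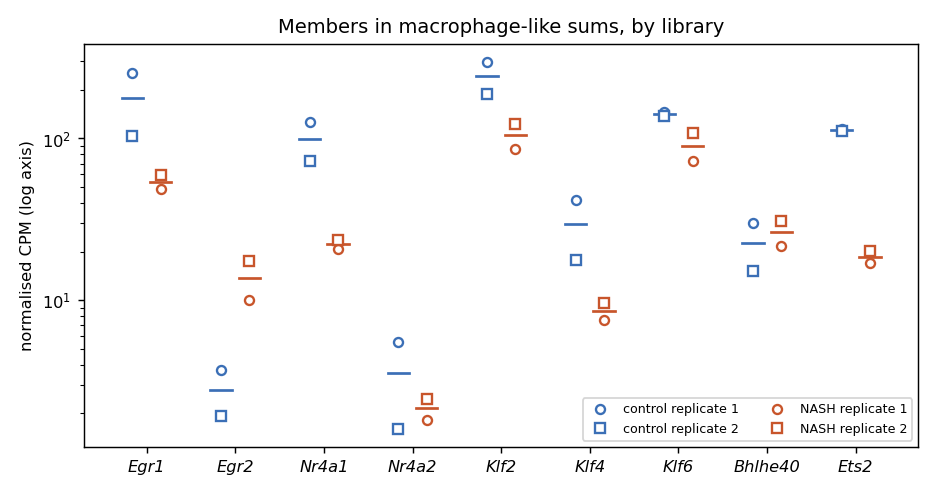
Normalised CPM (log axis) of the 9 tested members in macrophage-like sums, 1 point per library (circle, replicate 1; square, replicate 2) and a bar at the mean of 2 libraries. Both NASH points lie above both control points for Egr2 and below them for Egr1, Nr4a1, Klf2, Klf4, Klf6 and Ets2, while Nr4a2 and Bhlhe40 overlap.

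Among the Egr genes, Egr2 was at 3.68 and 1.93 normalised CPM in control and at 10.1 and 17.5 in NASH. These values rest on 14, 6, 55 and 128 UMIs, and both NASH libraries were above both control libraries. The rise was 4.82-fold (log2 fold change 2.27, SE 0.41, edgeR adjusted p = 0.00167). Egr1, the most studied immediate-early member, went the other way in level, with 254.4 and 103.8 normalised CPM in control and 48.4 and 59.4 in NASH. The groups did not overlap, but the control libraries differed from each other by more than the NASH libraries did, and the difference did not pass the threshold (log2 fold change -1.73, SE 0.53, edgeR adjusted p = 0.0801). It passed in 6 of 17 alternative settings, and the adjusted p over all 17 went up to 0.344. Among these 6 were DESeq2, no limit on mitochondrial share, the stricter cell filter and the replicate number as a block (log2 fold change -1.61). The rest were the fits without control replicate 1 (-0.95) and without control replicate 2 (-2.24). Each of those fits keeps 1 control library and so drops the spread between controls, and a pass there adds no support. The order of the control libraries was the same in both of their main clusters: in cluster 3, Egr1 was at 307 CPM in control replicate 1 and 193 in control replicate 2, and in cluster 4 at 183 and 104.

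Of the nuclear receptors, Nr4a1 was at 126.8 and 72.3 normalised CPM in control and at 20.6 and 23.6 in NASH. Every NASH value was below every control value, and Nr4a1 fell 4.50-fold (log2 fold change -2.17, SE 0.27, edgeR adjusted p = 0.000745). It passed in all 17 alternative settings, with log2 fold changes from -2.84 to -1.22. Nr4a2 was scarce, at 5.51 and 1.61 normalised CPM in control and 1.83 and 2.46 in NASH. Its groups overlapped (edgeR adjusted p = 0.263), and the sign turned without control replicate 1 (log2 fold change 0.42). Without control replicate 2 it passed as lower in NASH (-1.34, adjusted p = 0.0432), within a range of adjusted p over its 12 alternatives from 0.0432 to 0.765.

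All 3 Klf members fell per total UMIs. When UMIs were set against the number of cells, Klf6 turned in sign (log2 fold change 0.31), and Klf2 (-0.27, edgeR adjusted p = 0.363) and Klf4 (-0.86, adjusted p = 0.149) no longer passed. Klf2 was at 295.9 and 189.6 normalised CPM in control and at 85.7 and 123.2 in NASH, a fall of 2.32-fold (log2 fold change -1.22, SE 0.26, edgeR adjusted p = 0.00876). Klf4 was at 41.5 and 17.7 in control and at 7.49 and 9.55 in NASH, a fall of 3.49-fold (log2 fold change -1.80, SE 0.42, edgeR adjusted p = 0.0165). Both NASH libraries were below both controls for each of the 3 genes, and control replicate 1 was the highest. Klf4 lost its call without NASH replicate 1 (log2 fold change -1.64, adjusted p = 0.0801) and without NASH replicate 2 (-1.98, 0.0612), within a range of adjusted p over its alternatives from 1.18e-12 to 0.149. Without control replicate 1 the log2 fold change of Klf2 was -0.86 and that of Klf4 was -1.04.

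Klf6 had the smallest change of the 6 called members, with 144.9 and 137.5 normalised CPM in control and 72.5 and 107.5 in NASH (log2 fold change -0.65, SE 0.18, edgeR adjusted p = 0.0162). The 2 control libraries were close together and the NASH libraries apart. The call was kept in 11 of 17 alternative settings. It was lost without control replicate 1 (-0.61), without control replicate 2 (-0.68), without NASH replicate 1 (-0.39) and with a stricter cell filter (-0.49). On the scale of UMIs per cell, where Klf6 turned, the median of all genes was 0.94, the NASH cells being deeper.

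Ets2 had the largest fall of the members and the smallest standard error. It was at 115.2 and 110.5 normalised CPM in control and at 17.0 and 20.1 in NASH, 6.06-fold lower (log2 fold change -2.60, SE 0.15, edgeR adjusted p = 2.80e-06). The gap between the diets was far larger than that between replicates of either diet, and Ets2 passed in all 17 alternative settings (log2 fold change -2.97 to -1.64). Bhlhe40 was at 29.9 and 15.1 normalised CPM in control and at 21.7 and 31.0 in NASH. The groups overlapped (log2 fold change 0.22, SE 0.32, edgeR adjusted p = 0.620), and its sign depended on which library was left out. Over its 17 alternatives the adjusted p ran from 0.0103 to 0.929, and it passed as higher in NASH in 2, without control replicate 1 (0.81, adjusted p = 0.0401) and with the number of cells as scale (1.16, adjusted p = 0.0103), while without control replicate 2 it was at -0.17. Bhlhe40 overlaps an antisense gene (0610040F04Rik, 3 UMIs in all), and whether reads were counted by strand is not given in the sources used here.

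Depth and other cells' RNA moved with the diet in these sums. The median macrophage-like cell had 3113 and 2844 UMIs in control and 8317 and 7604.5 in NASH. When every cell was thinned to at most 1000 UMIs before summing, Egr2, Nr4a1, Klf2, Klf4 and Ets2 kept their calls and Klf6 did not (log2 fold change -0.53). In cells thinned to 1000 UMIs, the share of macrophage-like cells with a Klf2 UMI was 29.6% and 19.7% in control and 7.10% and 7.85% in NASH. The plasmacytoid dendritic cell-like class, whose Klf2 level was low, gave 2.67%, 1.74%, 4.00% and 5.77% in the same order. Without thinning the macrophage-like shares were 60.7%, 42.4%, 32.6% and 40.0%, and those of the plasmacytoid class were 16.0%, 9.83%, 22.0% and 36.5%, at a median of 4982 UMIs per cell in the latter.

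The 14 endothelial marker genes, a cell type the sort was meant to remove, summed to 306 and 329 CPM in control and 114 and 111 in NASH macrophage-like sums, and none was at 0. Of 13 tested, 9 fell and none rose, Pecam1 (log2 fold change -1.95) and Lyve1 (-2.85) among them. The sums amounted to 2.10%, 1.80%, 1.99% and 1.57% of the level in endothelial-like cells of the same libraries. At these shares endothelial RNA would carry 9.32 and 4.14 CPM of Klf2 in the control sums, which held 335 and 216 CPM, and 4.11 and 4.82 CPM of Ets2, which stood at 130 and 126. In the NASH sums, where the members were lower, the same estimate came to 7.68% and 8.95% of Klf2, 14.7% and 10.9% of Ets2, 14.4% and 10.1% of Egr1 and 15.3% and 28.5% of Klf4. The 12 hepatocyte marker genes summed to 1385 and 1304 CPM in control and 661 and 496 in NASH, with 9 of 12 lower and none at 0. The 10 hepatocyte-like cells, all of control replicate 1, held 28334 UMIs and none of any member. Erythroid RNA (5 genes) summed to 4480 CPM in control replicate 2 and to between 74.3 and 97.5 CPM in the other libraries, and its part in the results was not tested.

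With only cells holding a UMI of Clec4f, a marker of resident liver macrophages (Kupffer cells), 963 and 849 control and 534 and 794 NASH cells remained. A single such UMI does not single out Kupffer cells: it was also found in 28.1% of B cell-like, 23.2% of T cell-like and 49.2% of neutrophil-like cells, and nearly all control macrophage-like cells had one. The same 6 members passed in the same directions, with log2 fold changes of 2.24 for Egr2, -2.20 for Nr4a1, -1.11 for Klf2, -1.68 for Klf4, -0.66 for Klf6 and -2.50 for Ets2, while 42.5% of all genes tested in these cells changed. This restriction was chosen after the data had been seen.

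Within the class the members differed between clusters, which are given as levels in plain CPM of the cluster's own UMIs and are not tested, since these cells were clustered on their own RNA. In NASH, Klf2 was highest in cluster 2, the Kupffer-like cluster led by Folr2, Ccl2 and Ccl24 (164 and 191 CPM in NASH replicates 1 and 2). It was lower in cluster 14, led by Cx3cr1 and Olfml3 (69.5 and 76.8), and in cluster 15, led by Mmp12 and Mmp13 (50.7 and 55.0), and lowest in cluster 24, led by Gpnmb, Fabp5 and Spp1 (17.0 and 37.1). Nr4a1 had the same order, with 34.7 and 29.3 CPM in cluster 2 and 6.46 and 10.8 in cluster 24. Ets2 was between 6.46 and 23.4 CPM in every NASH cluster with at least 20 cells, against 105 to 150 in the control cells of clusters 3 and 4.

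Egr2 and Bhlhe40 were spread differently over the NASH clusters. Egr2 was at 13.2 and 19.3 CPM in cluster 15, at 11.9 and 12.4 in cluster 14 and at 0.708 and 11.5 CPM in cluster 2. Cluster 24 gave 6.46 and 28.7 CPM, so the NASH libraries differed there by more than the clusters did. Bhlhe40 was at 26.8 and 43.3 CPM in cluster 15 and at 3.76 and 9.20 in cluster 14, a gap larger than that between the libraries. Few control cells lay in these clusters. Cluster 2 held 26 and 30 of them against 146 and 347 NASH cells, and cluster 14 held 8 and 30 against 194 and 327. Cluster 2 was the only macrophage-like cluster with at least 20 cells of every library. The levels of its control cells are not listed here, and the diets were not tested within it. The 30 cells of control replicate 2 in cluster 14 had Egr1 at 271 CPM (95% Poisson interval 191 to 373, counting error only), against 54.5 and 66.4 CPM in the NASH cells of that cluster.

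**Figure D2:**
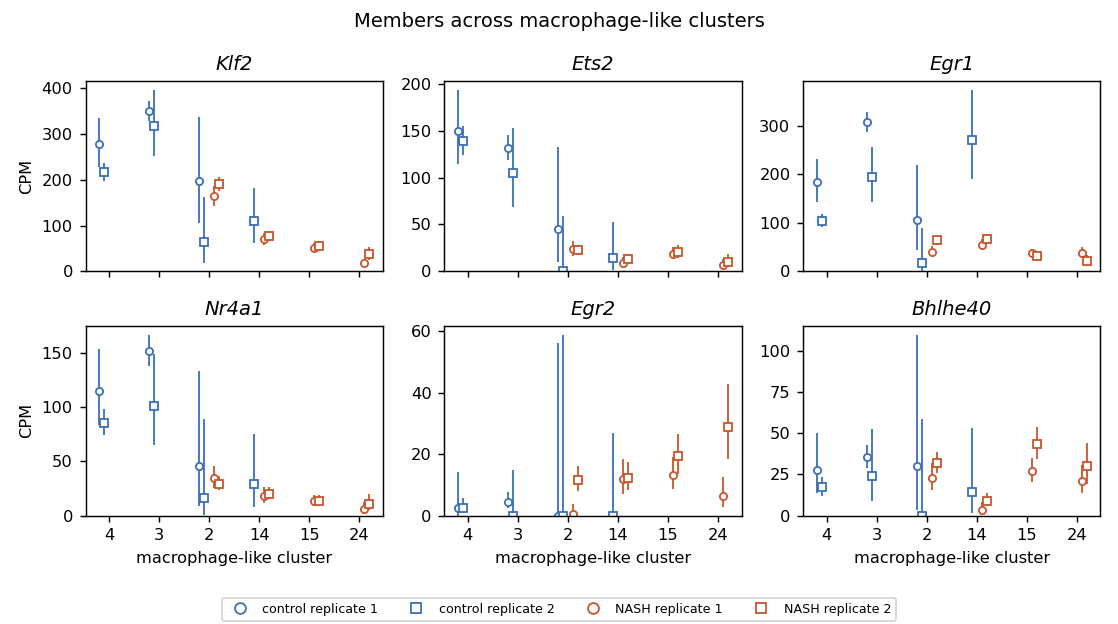
CPM of 6 members in the 6 macrophage-like clusters, 1 point per library with at least 20 cells in the cluster (blue, control; orange, NASH; bars, 95% Poisson intervals, counting error only). Control cells fill clusters 3 and 4, where Klf2, Ets2 and Nr4a1 are highest, and NASH cells fill clusters 2, 14, 15 and 24, where Egr2 is mostly higher.

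Across classes, levels are given as plain CPM of each class and library sum and as a description. Among the 7 classes tested, Klf2 was highest in endothelial-like cells (443 and 231 CPM in control, 288 and 622 in NASH), with macrophage-like cells next in control (335 and 216), and these did not differ beyond the gap between libraries. In NASH, T cell-like (157 and 236) and B cell-like cells (153 and 193) came above macrophage-like cells (74.4 and 109). Plasmacytoid dendritic cell-like cells had the lowest mean in control (39.4 and 24.0). Monocyte-like cells, whose control libraries held only 8 and 12 of them, had 79.3 and 164 CPM in NASH.

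Egr1 was at 295 and 87.5 CPM in control and 304 and 337 in NASH endothelial-like cells, and at 3.64 to 7.44 in every plasmacytoid library. The 18 cholangiocyte-like cells, all in NASH, had Egr1 at 438 and 452 CPM. Among tested classes Ets2 was likewise highest in endothelial-like cells (195 and 268 in control, 109 and 124 in NASH) and was at 9.96 CPM or less in every dendritic cell-like library. Nr4a1 was highest in control macrophage-like cells (144 and 82.3 CPM) among the classes tested, and in NASH monocyte-like cells held 45.0 and 68.5. Klf4, a factor of monocyte differentiation, was in NASH at 36.9 and 24.1 CPM in monocyte-like cells and at 53.8 and 46.2 in dendritic cell-like cells, against 6.50 and 8.46 in macrophage-like cells. Klf6 was above 10 CPM in every library of the tested classes other than T cell-like cells.

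**Figure D3:**
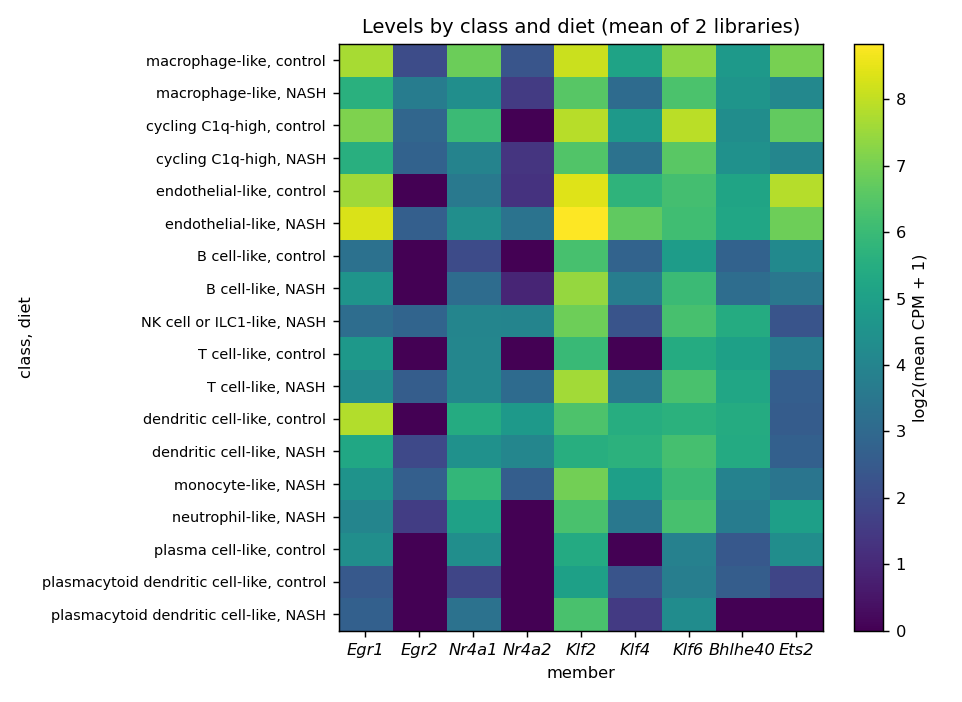
Mean plain CPM over 2 libraries on a log2(CPM + 1) scale, for the members with more than 2 UMIs (columns) and each class and diet with at least 10 cells in both libraries (rows). Klf2 is high in most rows, Ets2 is highest in endothelial-like and control macrophage-like rows, Egr1 is high in these and in the control dendritic cell-like row, and the plasmacytoid rows are dark for all members but Klf2 and Klf6.

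Dendritic cell-like cells fell into 3 clusters with different members. In NASH, Klf4 was at 117 and 89.0 CPM in cluster 19, led by Cd209a and Mgl2 (a pattern of type 2 conventional dendritic cells), at 12.5 and 31.6 in cluster 18, led by Xcr1 and Naaa (type 1), and at 2.69 and 0 in cluster 23, led by Fscn1 and Ccr7 (migrating cells). The gap between cluster 19 and the others was larger than that between libraries. Cluster 23 had the highest Klf6 (110 and 219 CPM against 26.8 to 63.3 in clusters 18 and 19). Its Nr4a2 was at 64.5 and 16.2 CPM, against 3.00 to 19.6 in the other clusters, so the second NASH library overlapped them.

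In cycling C1q-high cells, proliferating macrophages by their markers, 5 of 7 members tested fell and none rose, where 23.4% of all genes changed. Ets2 went from 96.0 and 97.7 normalised CPM in control to 17.2 and 18.7 in NASH (log2 fold change -2.41, SE 0.34, edgeR adjusted p = 0.000154). Nr4a1 went from 92.1 and 27.9 to 11.9 and 21.1 (log2 fold change -1.89, adjusted p = 0.0144), and Klf2 from 280.3 and 162.9 to 67.6 and 127.5 (-1.19, 0.0208). Klf6 (-1.05, adjusted p = 0.0166) and Egr1 (-1.31, 0.0167) were the other members that fell. Klf4 did not pass (30.7 and 18.6 in control, 6.62 and 14.0 in NASH, edgeR adjusted p = 0.121), nor did Bhlhe40 (adjusted p = 0.639). Egr2 was not tested there, and its groups overlapped at 7.68 and 4.65 normalised CPM in control and 6.62 and 7.02 in NASH. Set against the number of cells, Egr1 (0.013), Klf2 (0.14) and Klf6 (0.29) turned in sign and only Ets2 (-1.08) still passed. Without control replicate 1, Egr1 (-0.38), Nr4a1 (-0.73) and Klf2 (-0.72) no longer passed. Klf6 lost its call without control replicate 2 (-0.82) or NASH replicate 1 (-0.66), and Ets2 kept its call without any 1 library. The effect differed from that of macrophage-like cells for 0 of 7 members in edgeR's test of the difference (adjusted p at least 0.695, with 0 at an unadjusted p under 0.05), where 0.283% of all genes differed. The standard errors of these differences ran from 0.22 to 0.60 on the log2 scale.

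The Klf2 difference between the diets had the opposite sign in lymphocytes and passed the test in B cell-like cells. There Klf2 was at 102.7 and 74.6 normalised CPM in control and at 167.9 and 201.2 in NASH, and it rose 2.13-fold (log2 fold change 1.09, SE 0.32, edgeR adjusted p = 0.0153), where 16% of all genes changed. Both NASH libraries were above both control libraries, but the call was lost without control replicate 2 (0.82) and without NASH replicate 2 (0.95). With the number of cells as scale the log2 fold change was 2.07 (adjusted p = 2.07e-07). Klf6 was at 29.3 and 37.3 in control (4 and 6 UMIs) and 58.6 and 77.2 in NASH B cell-like cells (15 and 43 UMIs). It did not pass (edgeR adjusted p = 0.116). In T cell-like cells Klf2 was at 44.7 and 102.6 normalised CPM in control and at 184.8 and 291.3 in NASH (log2 fold change 1.58, SE 0.51, adjusted p = 0.329), where 0.518% of all genes changed. The control T cell-like sums held 11 and 29 cells. In plasmacytoid dendritic cell-like cells Klf2 was at 44.0 and 26.6 in control and at 53.1 and 108.4 in NASH (log2 fold change 1.28, SE 0.40, adjusted p = 0.136), where 2.21% of all genes changed.

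The difference between these diet effects and that of macrophage-like cells was tested with an interaction of class and diet, in fits that kept the library as a block. The Klf2 effect was 2.41 log2 units higher in B cell-like cells (SE 0.34, edgeR adjusted p = 2.56e-10, 7.32% of all genes differed). It was 3.03 higher in T cell-like cells (SE 0.49, adjusted p = 5.24e-07, 1.05% of all genes) and 2.51 higher in plasmacytoid cells (SE 0.38, adjusted p = 6.69e-09, 8.77% of all genes). The B cell-like and plasmacytoid differences passed with each library left out in turn. The T cell-like one did not pass without control replicate 1 (2.38, adjusted p = 0.101).

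Endothelial-like cells, which had UMIs of all 14 of their markers in at least 25% of cells and passed the sort in small number, differed from macrophage-like cells in 4 of 6 members, where 2.16% of all genes differed. The Egr1 effect was 2.66 log2 units higher (SE 0.29, edgeR adjusted p = 3.07e-06), that of Klf4 2.64 higher (SE 0.45, adjusted p = 0.00104), that of Klf2 1.72 higher (SE 0.28, adjusted p = 0.000588) and that of Ets2 1.71 higher (SE 0.31, adjusted p = 0.00174). All 4 passed with each library left out in turn. Within endothelial-like cells, Ets2 alone passed, with 211.6 and 280.7 normalised CPM in control and 125.1 and 136.6 in NASH (log2 fold change -0.94, SE 0.25, adjusted p = 0.0461), where 7% of all genes changed. That call was lost without control replicate 2 (-0.70), without NASH replicate 1 (-0.86) and without NASH replicate 2 (-0.96), and with the number of cells as scale the value was 0.0037. Egr1 was at 320.0 and 91.5 normalised CPM in control and at 348.0 and 372.7 in NASH endothelial-like cells (edgeR adjusted p = 0.341). The class itself differed between the diets. Its 14 markers summed to 14545 and 18348 plain CPM in control and to 5761 and 7069 in NASH endothelial-like sums. A change within these cells cannot be told apart from a change in the make-up of the class, which was not tested.

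In dendritic cell-like cells no member of 7 passed (adjusted p at least 0.239 by edgeR, with 2 at an unadjusted p under 0.05), where 1.75% of all genes changed. The control sums held 10 and 30 cells and the NASH sums 182 and 156. Cluster 18 held 6 and 18 of the control cells and 49 and 51 of the NASH cells. Cluster 23 held 0 and 4 against 49 and 42, and cluster 19 held 4 and 8 against 84 and 63. The mix of clusters so differed between the diets, cluster 19 with its high Klf4 included. The part of this mix in the effects was not tested. Egr1 was at 266.6 and 199.3 normalised CPM in control and at 60.4 and 15.1 in NASH (log2 fold change -2.56, SE 0.71, adjusted p = 0.239). Against macrophage-like cells, 3 of 7 effects differed, where 5.32% of all genes differed. They were Klf4 (2.09 log2 units higher, adjusted p = 0.000401), Nr4a1 (1.53 higher, 0.0343) and Klf6 (1.26 higher, 0.0225). Nr4a1 lost this call with any 1 library left out, Klf6 without control replicate 1, NASH replicate 1 or NASH replicate 2, and Klf4 without control replicate 1 or NASH replicate 1.

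**Figure D4:**
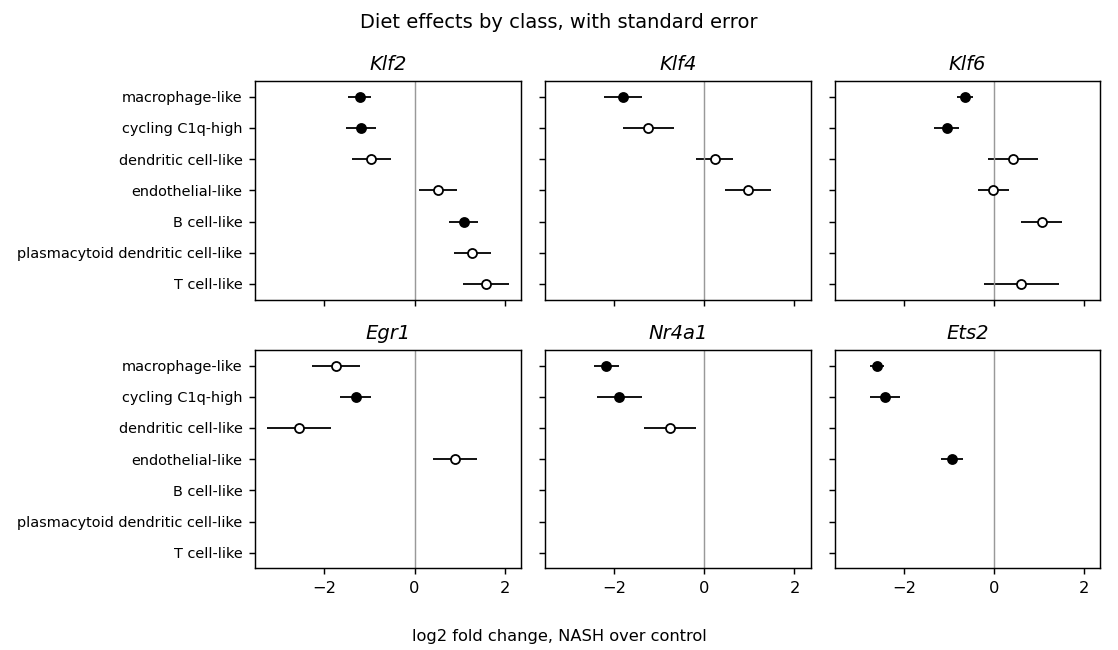
Log2 fold change of NASH over control (x axis) with its standard error for 6 members in each class that could be tested (rows); filled points have an edgeR adjusted p under 0.05. Klf2 lies below 0 in macrophage-like, cycling and dendritic cell-like cells and above 0 in the other 4 classes.

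Other genes of the same signalling pathways were read from the macrophage-like fit. Of 15 upstream regulators and corepressors, 3 rose and 8 fell (median log2 fold change -0.52). Elk4 and Mkl1, partners of serum response factor, fell by 1.20 and 1.14 on the log2 scale, while of their relatives Elk3 rose (0.86, edgeR adjusted p = 0.00745) and Mkl2 did not pass (0.12, adjusted p = 0.719). The gene of serum response factor itself, Srf, fell by 1.09 (edgeR adjusted p = 0.00180). Srf and the other 4 were named after their values were seen. Mef2a fell by 0.79 while Mef2c, of the same family of activators, rose from 6.04 and 10.6 normalised CPM in control to 61.2 and 40.2 in NASH (log2 fold change 2.63, SE 0.30, edgeR adjusted p = 0.000273). The corepressors of EGR proteins split, with Nab2 higher (0.74, adjusted p = 0.00372) and Nab1 lower (-0.52, 0.0406), both chosen after their values were seen.

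Of the other Klf genes, 7 of 14 could be tested, 3 fell and none rose (median -0.75). Klf7 went from 135.5 and 144.9 normalised CPM to 45.5 and 47.5 (log2 fold change -1.59, SE 0.13, edgeR adjusted p = 2.25e-05), and Klf10 (-1.56) and Klf11 (-1.73) fell as well. Of 15 other Ets genes tested, 6 fell and none rose (median -0.38), among them Fli1 (-0.87), Etv1 (-2.41), Gabpa (-0.66) and the endothelial factor Erg (-2.90, at 3.68 and 7.39 normalised CPM in control). Of the relatives of the other members only Bhlhe41 could be tested, and it did not pass (1.19, adjusted p = 0.0712).

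Feedback inhibitors of MAP kinase signalling were lower in 4 of 9 tested and higher in none (median -0.68). Dusp1, which dephosphorylates p38 and JNK, went from 446.0 and 296.6 normalised CPM to 97.6 and 100.7 (log2 fold change -1.91, SE 0.19, edgeR adjusted p = 8.60e-05). Dusp7 (-0.84), Dusp16 (-0.68) and Errfi1 (-1.14) were the other members that fell. Of 7 AP-1 genes tested, 5 fell and 1 rose (median -1.67), with Fos at -1.77, Junb at -1.67 and Jund at -0.83, while Atf3 rose by 1.47. Of 30 other immediate-early genes tested, 9 fell and 4 rose (median -0.36), with Ier3 (-2.13), Pim1 (-1.57), Btg1 (-1.45) and Nfkbiz (-1.30) lower.

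Thrombomodulin (Thbd), a target gene of KLF2 and KLF4 that endothelium also makes, fell by 1.12 on the log2 scale. Of 11 glucocorticoid response genes tested, 4 fell and 1 rose (median -0.75), Per1 at -1.06 and Mt1 at 0.63 among them. This list shares Dusp1 and Errfi1 with the feedback inhibitors. Of 9 heat shock genes tested, 3 rose and none fell (median 0.63), with Hsp90aa1 at 1.10, Hspe1 at 0.98 and Hspd1 at 0.63. All these shares stand beside the 44.6% of genes that changed in this class.

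The genes whose pattern was most like each member's were found by Pearson correlation of log2(CPM + 1) over 43 class and library sums with at least 10 cells. The sums share libraries and depth, and the values describe likeness only. Egr1 was most like Fos (0.86) and Junb (0.81), both AP-1 genes, and Nfix (0.77). Ets2 was most like Dram2 (0.80), Vcam1 (0.79) and Arhgef12 (0.79). Egr2 was most like Mmp12 (0.68), the elastase that leads cluster 15, followed by Cndp2 (0.67) and Aif1 (0.65). Klf6 was most like Ddx3x (0.87) and Klf2 like G3bp2 (0.83), Klf4 like Mtus1 (0.80), Nr4a1 like Fam105a (0.68), and Bhlhe40 like Ubp1 (0.72). Among the members themselves the highest value was between Klf2 and Klf6 (0.70), followed by Egr1 and Klf4 (0.65). Of the members with more than 2 UMIs, the lowest value was between Nr4a2 and Ets2 (-0.11). The lowest value of Egr1 was with Egr2 (0.14).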

How the data were processed

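Droplet single-cell RNA was measured in 2 control and 2 NASH libraries. The deposited values are counts, raw UMIs per gene and cell. Per the submitters' processing notes, Cell Ranger, Seurat and the mm10 build were used, with no versions or roles given. How barcodes were called as cells is not given in the sources used here. The members and gene lists were chosen with earlier results of these data known.

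Kept cells had 200 or more genes and a mitochondrial share of 10% or less, and the cells with the highest Scrublet scores (0.8% per 1000 cells) were left out as putative doublets. Total deposited UMIs per library were 5513953, 5684819, 13749657 and 15619962. Scanpy 1.11.5 (2000 variable genes, 30 principal components, 15 neighbours, Leiden resolution 1.0, igraph 0.11.9, Python 3.11.15) gave clusters. They were named from marker lists, after a change made with the clusters in view: a cluster with C1qa, C1qb and C1qc each in at least 90% of cells counted as macrophage-like unless other lineage genes led it. Counts were summed per class and library. The 7 classes with at least 10 cells in every library were tested with edgeR 4.0.16 (limma 3.58.1, R 4.3.3; TMM, filterByExpr, robust quasi-likelihood F test, Benjamini-Hochberg, threshold 0.05), and interactions were read only for members tested in both classes. DESeq2 1.42.0 was an alternative. The fits were checked on simulated counts. An exact permutation test of 2 against 2 libraries cannot go below p = 0.333. Intervals are 95% exact Poisson and cover counting error only.

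The genes named are all 10 members, per other list the 4 with the smallest p among those that passed, and per member the 3 most alike among genes of mean CPM at least 20. Gene positions are from GENCODE (mm10), and promoter windows from RefSeq (GRCm38.p6). A result withheld for evaluation is not reported here.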

Additional observations from a re-analysis of the deposited data

Results flagged for a closer look

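Diet effects of 11 member and class pairs differed from those in macrophage-like cells in edgeR's test of the interaction. Of the members read, 2 of 2 differed in B cell-like, 1 of 2 in T cell-like and 1 of 1 in plasmacytoid cells. In endothelial-like cells 4 of 6 differed, in dendritic cell-like 3 of 7 and in cycling cells 0 of 7. Over all genes the shares were 7.32%, 1.05%, 8.77%, 2.16%, 5.32% and 0.283% in the same order. All 11 were higher than in macrophage-like cells, and each value is a difference of log2 fold changes. They share the macrophage-like sums as reference, where 5 of 9 members tested fell, so they are not separate results. The filter on low counts can also keep a member through the diet where it is high. Klf6 in B cell-like sums held 4 and 6 UMIs in control against 15 and 43 in NASH. The counts of members read therefore give no support for a direction. For Klf2 the difference was 2.41 in B cell-like, 3.03 in T cell-like, 2.51 in plasmacytoid dendritic cell-like and 1.72 in endothelial-like cells. For Klf6 it was 1.80 in B cell-like and 1.26 in dendritic cell-like cells. For Klf4 it was 2.09 in dendritic cell-like and 2.64 in endothelial-like cells. For Nr4a1 it was 1.53 in dendritic cell-like cells. For Egr1 and Ets2 it was 2.66 and 1.71 in endothelial-like cells. The median of all genes in these tests was 0.24 in B cell-like and T cell-like, 0.19 in dendritic cell-like, 0.01 in endothelial-like and -0.02 in plasmacytoid cells. Klf6 in B cell-like cells did not pass without control replicate 1 (1.61, adjusted p = 0.0834) and without NASH replicate 2 (1.86), and its adjusted p over the 4 fits ran from 0.0326 to 0.0834.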

How the results depend on the processing

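The alternatives with no limit on mitochondrial share, upper-quartile factors, no filter on low counts, other Leiden resolutions (0.5 and 2.0) and more putative doublets removed kept all 6 macrophage-like calls. The number of changed members ran from 4 to 7 over all alternatives. The number of changed genes in macrophage-like sums (4585) was 3051 by DESeq2, 2523 with the stricter cell filter, 2563 with thinned cells, 7197 with the number of cells as offset, and 2561 to 4273 with 1 library left out. With the number of cells as offset, chosen after seeing the data, the log2 fold changes turned in sign for Nr4a2 (0.18) and Klf6 (0.31) in macrophage-like, for Egr1 (0.013), Klf2 (0.14) and Klf6 (0.29) in cycling and for Ets2 (0.0037) in endothelial-like sums, and those of Klf2 (-0.27) and Klf4 (-0.86) in macrophage-like sums no longer passed, while that of Bhlhe40 (1.16) did. On that scale 6929 genes were higher and 268 lower. With library totals only, Bhlhe40 turned (-0.15), 24.8% of changed genes were higher against 52.2% as reported, and the median of all genes was -0.39. With 1 library left out, Nr4a2 ran from -1.34 to 0.42 and Bhlhe40 from -0.17 to 0.81 on the log2 scale. The causes were not tested.

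With 1 library left out, the number of changed genes ran from 222 to 402 in B cell-like (389), 250 to 584 in endothelial-like (336), 81 to 120 in plasmacytoid (79) and 13 to 77 in T cell-like sums (9). The number of genes whose effect differed from macrophage-like cells ran from 361 to 513 for B cell-like (691), 6 to 38 for cycling (27), 99 to 467 for dendritic cell-like (530), 136 to 351 for endothelial-like (220), 308 to 515 for plasmacytoid (833) and 19 to 39 for T cell-like cells (99). A left-out library leaves 1 in its diet, assumed to vary like the others.

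The replicate numbers gave no sign of pairing (correlation -0.034 of the deviations of same-numbered libraries), and samples share only a number. With the replicate number as a block, 7 members changed in macrophage-like sums, Egr1 with them, and 197 genes changed in dendritic cell-like (107), 154 in plasmacytoid (79) and 39 in T cell-like sums (9). Depth limits Egr3, with 2 UMIs, and Nr4a2, and the small control sums of T cell-like and dendritic cell-like cells.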

Other observations

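Bhlhe40 had similar levels in several NASH leukocyte classes outside macrophages. It was at 47.6 and 36.7 plain CPM in NK cell or ILC1-like cells (6 and 6 UMIs) and at 32.5 and 40.1 in T cell-like cells (6 and 8 UMIs). Dendritic cell-like cells had 48.8 and 34.2. Levels were 16.8 and 11.1 in monocyte-like, 7.10 and 8.63 in B cell-like and 18.9 and 27.4 in macrophage-like cells. The 95% Poisson intervals of the NK cell or ILC1-like and T cell-like values overlapped those of monocyte-like cells. An unnamed cluster led by Mpo, Elane and Prtn3, genes of granulocyte and monocyte progenitors, had Klf4 at 48.8 and 47.1 CPM in NASH and at 25.7 and 11.5 CPM in control (14 and 18 cells). Its Egr1 was at 77.2 and 247.8 CPM in control and at 89.9 and 29.8 in NASH, and the groups overlapped.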
